A study of Mus musculus with 4 samples.

Results

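Extracellular proteases and their inhibitors were followed in mouse peritoneal macrophages labelled as Mac-Gata6 KO, a knockout of the transcription factor GATA6, or as control. The genes were chosen by symbol. They comprised every gene that the platform annotation names Adam (Adamts, Adamtsl and Adamdec1 included), Mmp or Timp with a number, Htra or Serpin, with Serpinb2 left out. This gave 138 of the 19057 genes that the annotation names. Each was represented by its brightest probe, taken as the mean of the 4 arrays.

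The Mac-Gata6 KO arrays (2) carried RNA from mice with a floxed Gata6 and Cre recombinase driven by the lysozyme M locus, which is active in macrophages and also in neutrophils. The control arrays (2) carried RNA from mice whose genotype is given only as control, so whether they held Cre or the floxed allele is not stated. Both groups were C57BL/6, untreated and 8 to 16 weeks old, and the macrophages had been sorted from the peritoneal cavity. Nothing in the labels says whether the 2 samples of a group came from separate animals. The p-values set the group difference against the scatter of these samples within groups, partly pooled over genes. That scatter may be technical, so p-values do not describe differences between animals. Values are log2 intensities after background correction and quantile normalization, and "detected" means a detection p-value under 0.05 on at least 2 arrays.

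Proteases that work outside the cell cut matrix proteins, release growth factors from their latent forms and shed receptors and cytokines from cell surfaces. ADAM proteins are mostly membrane-anchored metalloproteinases that act as sheddases, ADAMTS proteins are their secreted matrix-cutting relatives, and MMPs cut collagens, gelatin and elastin. TIMPs block these metalloproteinases, while serpins trap serine proteases by an irreversible change of shape. Clade B serpins lack a classical signal peptide and work largely inside cells, where they limit damage from granule and lysosomal proteases. In macrophages the balance of these enzymes and inhibitors is known to govern tissue remodelling and the release of membrane-bound cytokines.

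The sorted cells carried the macrophage markers. All 8 macrophage markers that the annotation names were detected, although 3 of them, Adgre1, Fcgr1 and Icam2, were lower in the knockout, while 0 of 7 fibroblast, 0 of 7 mesothelial and 0 of 5 hepatocyte markers were. Gata6 had a log2 intensity of 13.07 and 12.83 in knockout and 13.77 and 13.66 in control (log2 change -0.76 ± 0.15, adjusted p = 0.0270 by limma). This leaves 59.0% of the control signal, and no source used here places the probe inside or outside the floxed exons. Values after ± are standard errors from the limma fit. Each array had between 16096 and 16484 detected probes. The median absolute difference between arrays of a group was 0.18 in knockout and 0.16 in control on the log2 scale over all genes tested, against 0.26 in knockout and 0.14 in control over the detected proteases and inhibitors. The samples were bulk RNA, so fewer cells of a type and less RNA per cell cannot be told apart.

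In knockout macrophages the serine protease Htra3, the sheddase Adam8 and the elastase inhibitor Serpinb1a fell, while the gelatinase Mmp9 and the cathepsin G inhibitor Serpinb6a rose. Of the 138 genes 26 were detected and tested, and 5 of these changed, with 2 higher and 3 lower in the knockout. That is 19.2% of the 26, beside 12.3% of the 11628 genes tested across the whole table. The whole-table share moved with the processing. It was 19.3% with no background correction or with the authors' values, beside 26.9% of the members tested. It was 19.1% when the variance was modelled on intensity and made robust, beside 26.9%, and 3.51% with no detection filter, beside 4.35%. It was 5.21% without knockout replicate 1, 6.51% without knockout replicate 2, 5.61% without control replicate 1 and 5.68% without control replicate 2, while 16% to 19.2% of the members tested passed in those fits. In the separate directions the whole-table shares were 6.11% higher and 6.14% lower. The adjusted p of the 5 genes was at most 0.0101 (limma, two-sided, Benjamini-Hochberg over all genes tested). The remaining 21 detected members had log2 changes between -0.43 and 0.63, with adjusted p of 0.0511 or more. The median log2 change of the 26 was 0.25, beside -0.01 over all genes tested, and 18 of the 26 (69.2%) had a positive sign, beside 49.0% of all genes. The groups did not overlap for 18 of the 26, with both knockout arrays above both control arrays for 11 and below for 7. Over the whole table the groups did not overlap for 56.8% of genes, with 27.6% above and 29.2% below.

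**Figure D1:**
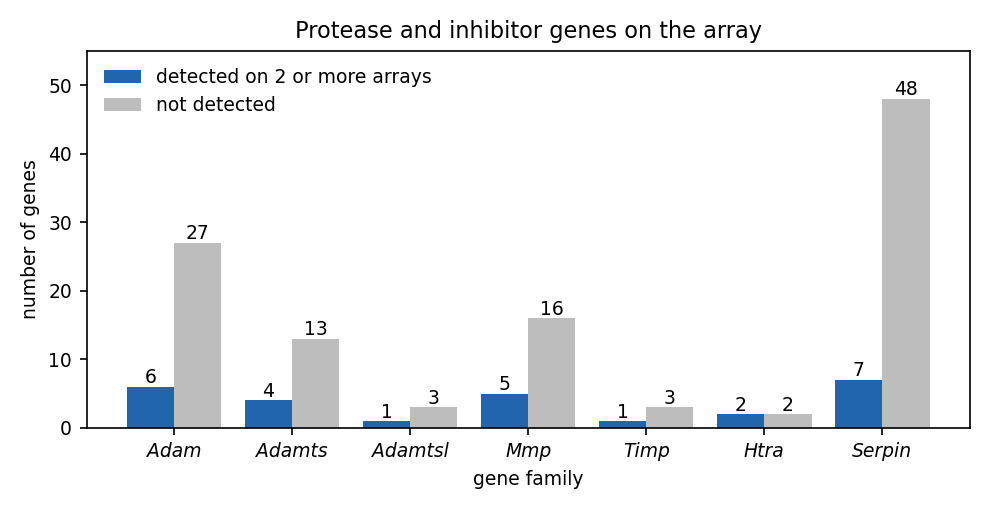
Number of protease and inhibitor genes on the array in each family, split into those detected on at least 2 of the 4 arrays (blue) and those not detected (grey). Serpins were the family with the most genes, 55, of which 7 were detected, and Mmp genes had 5 detected of 21.

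The promoters of the most strongly lowered protease and of the lowered sheddase are shown because GATA6 binds DNA at GATA motifs and both genes fell in the knockout. They are the 250 bases before 1 annotated start of each gene (RefSeq, GRCm38.p6). The Adam8 gene record reaches further upstream, to about position 139995000, so its window lies within the gene, before a downstream start. No Adam8 window further upstream was searched. Htra3 lies at chr5:35679781-35680030 and Adam8 at chr7:139992563-139992812, both windows on the minus strand and printed 5′ to 3′. Capitals mark matches to the CCAAT box on either strand, a motif chosen after the sequences had been seen.
Htra3: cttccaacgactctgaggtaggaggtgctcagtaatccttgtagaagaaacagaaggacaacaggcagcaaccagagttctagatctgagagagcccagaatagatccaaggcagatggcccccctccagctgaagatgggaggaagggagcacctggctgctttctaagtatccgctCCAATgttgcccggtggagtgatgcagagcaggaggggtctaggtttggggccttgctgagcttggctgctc
Adam8: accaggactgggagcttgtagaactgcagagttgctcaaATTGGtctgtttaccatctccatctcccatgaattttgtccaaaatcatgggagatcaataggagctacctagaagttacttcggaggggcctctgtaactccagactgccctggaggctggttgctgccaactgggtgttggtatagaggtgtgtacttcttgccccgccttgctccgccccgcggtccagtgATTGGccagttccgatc
Neither window held a GATA motif (AGATA or TGATA followed by A or G, on either strand) or an AP-1 motif (TGANTCA on either strand). The windows found for Serpinb6a, not shown, held neither motif. Serpinb1a, which also fell, and Mmp9 had no window. Among all 32851 promoter windows of the same length, 26.5% held a GATA motif and 6.75% an AP-1 motif. Htra3 held 1 CCAAT box and Adam8 held 2, and 33.9% of all windows held at least 1. Of the 26 detected members 17 had an entry, with 18 windows in all, and 4 of those windows held a GATA motif (22.2%), 3 an AP-1 motif (16.7%) and 8 a CCAAT box (44.4%). Over the 109 windows found for all members, detected or not, the shares were 27.5% for GATA, 19.3% for AP-1 (21 windows) and 33.0% for CCAAT. A match or its absence describes only these letters in these windows.

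**Figure D2:**
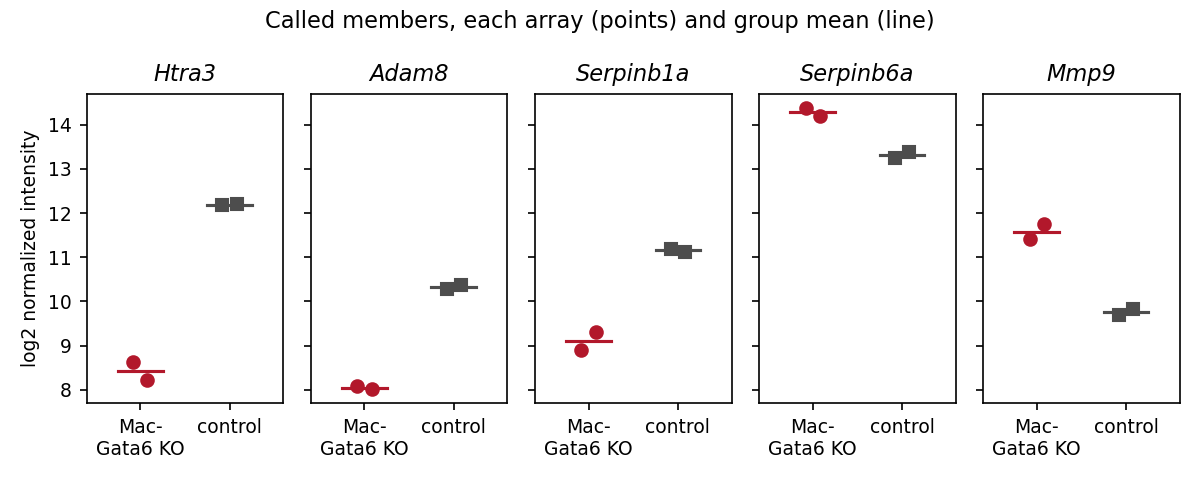
Log2 normalized intensity of the 5 called genes on each array, with Mac-Gata6 KO arrays as red circles, control arrays as grey squares and group means as lines. The arrays of the groups do not overlap for any of the 5, and Htra3 has the widest gap, with means of 8.42 in knockout and 12.19 in control.

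HtrA proteins are serine proteases with a PDZ domain. Htra3, a secreted member known to cut matrix proteins and to oppose TGF-beta signalling, was the member with the largest change. Its log2 intensity was 8.62 and 8.22 in knockout and 12.18 and 12.21 in control. Before any correction its intensity was 494 and 432 in knockout and 5117 and 4385 in control. Both knockout arrays lay far below both control arrays and remained detected. The log2 change was -3.77 ± 0.18 (adjusted p = 0.00016), which makes Htra3 13.7-fold lower in the knockout, with a 95% interval of 10.16-fold to 18.4-fold. A second Htra3 probe, designed to the same transcript record, gave 6.01 and 5.35 in knockout, where it was detected on 1 array, and 8.98 and 9.03 in control. Its log2 change was -3.33 ± 0.24 (adjusted p = 0.00061 over all detected probes). Both Htra3 probes went the same way by a similar amount.

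Htra2, a mitochondrial relative that promotes cell death once released into the cytosol, was detected on all 4 arrays and did not pass. It had 10.75 and 10.77 in knockout and 10.89 and 10.96 in control (log2 change -0.16 ± 0.13, 95% interval -0.49 to 0.16). Its other probes had log2 changes of 0.07 ± 0.14 and -0.14 ± 0.18. Htra1 and Htra4 were not detected on any array.

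Of 33 Adam genes 6 were detected, and 1 of them changed. Adam8, a sheddase of leukocytes known to cut adhesion molecules, had a log2 intensity of 8.09 and 8.02 in knockout and 10.29 and 10.36 in control. The raw intensity was 375 and 392 in knockout and 1455 and 1295 in control. The arrays within each group lay close together and the groups stood far apart. The log2 change was -2.27 ± 0.13 (adjusted p = 0.00033), or 4.83-fold lower in the knockout with a 95% interval of 3.85-fold to 6.07-fold. A second probe of the same record gave 7.89 and 7.30 in knockout and 10.04 and 10.03 in control, a log2 change of -2.43 ± 0.22. The remaining Adam8 probe, designed to another record, was not detected on any array.

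Adam17 and Adam10, the main sheddases of tumour necrosis factor and of Notch receptors, did not pass. Adam17 had 11.20 and 10.94 in knockout and 10.72 and 10.75 in control, so both knockout arrays were above both control arrays. Its log2 change was 0.34 ± 0.15 (adjusted p = 0.216, 95% interval -0.03 to 0.71), and its second probe had 0.55 ± 0.17 (adjusted p = 0.0900 over all detected probes). Adam10 was close to background, at 5.82 and 6.46 in knockout and 6.15 and 5.62 in control, where it was detected on 1 array. The groups overlapped and its interval was wide, from -0.41 to 0.92.

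Adam15, a sheddase with an integrin-binding motif in the human protein, had 14.12 and 14.10 in knockout and 13.77 and 13.93 in control. The log2 change of 0.26 ± 0.14 did not pass (adjusted p = 0.299). Among its other detected probes, 1 designed to a different transcript record had 10.29 and 10.12 in knockout and 9.54 and 9.51 in control, a log2 change of 0.68 ± 0.15 (adjusted p = 0.0368 over all detected probes). Another probe of that record had a change of 0.36 ± 0.19, and all 4 detected Adam15 probes had a positive sign. Adam9, a widely expressed sheddase, varied more between control arrays, at 10.23 and 10.62 in knockout and 10.25 and 9.70 in control (log2 change 0.45 ± 0.23, adjusted p = 0.275). Adam4, a gene known mainly from testis, was near background at 6.25 and 6.50 in knockout and 5.82 and 5.69 in control. Its log2 change of 0.63 ± 0.15 missed the threshold (adjusted p = 0.0511). Not detected were 27 Adam genes, among them Adam28, Adamdec1 and Adam12, and Adam2 and Adam3, genes known mainly from testis. Adam33 was detected on 1 array.

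Adamts and Adamtsl genes were sparse. Of 17 Adamts genes 4 were detected, and of 4 Adamtsl genes 1, and none of these 5 passed (limma, with 1 at an unadjusted p under 0.05). That gene was Adamtsl4, a matrix protein that binds fibrillin and lacks the protease domain, with 9.19 and 8.98 in knockout and 8.63 and 8.43 in control. Both knockout arrays were higher, and the log2 change was 0.55 ± 0.16 (adjusted p = 0.0740). It passed in 6 of 11 other settings that kept all 4 arrays, with adjusted p between 0.0166 and 0.131. Adamts10, which acts on fibrillin microfibrils, had a log2 change of 0.24 ± 0.18 (95% interval -0.21 to 0.69). Adamts6, Adamts12 and Adamts13, the last known as the protease of von Willebrand factor, were each detected on 3 arrays, near background. Their log2 changes were 0.48 ± 0.21 for Adamts6, -0.36 ± 0.22 for Adamts12 and 0.36 ± 0.25 for Adamts13. Adamts1 was not detected.

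Of 21 Mmp genes 5 were detected, all on 4 arrays, and 1 changed. Mmp9, the gelatinase that cuts denatured collagen and type IV collagen, had a log2 intensity of 11.41 and 11.74 in knockout and 9.69 and 9.84 in control. The raw intensity was 2776 and 3772 in knockout and 1006 and 929 in control. Both knockout arrays lay above both control arrays. The log2 change was 1.81 ± 0.17 (adjusted p = 0.0018), a rise of 3.51-fold with a 95% interval of 2.64-fold to 4.66-fold, measured by 1 probe.

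Neutrophils are a rich source of Mmp9, so their markers are given beside it. Of 8 neutrophil markers named on the array 7 were not detected, the granule genes Elane, Mpo, Ltf, Ngp and Camp among them. The remaining marker, S100a8, was lower in the knockout, at 9.25 and 9.72 against 10.65 and 10.47 in control (log2 change -1.07 ± 0.20, adjusted p = 0.0197). The summed neutrophil signal, in linear normalized units, ranged from 856 to 1077 in knockout and from 1663 to 1845 in control. Most of that sum was S100a8. Prtn3, a granule protease gene outside this marker list, was detected on all 4 arrays. Its log2 change of -0.46 ± 0.15 did not pass (limma, adjusted p = 0.0999). Ctsg, another granule protease gene outside the list, went the other way. It was higher in knockout (6.32 and 6.37), with control not well above background (5.04 and 4.97). Markers of some other cells did move with the knockout. In the T cell and eosinophil lists 1 marker each was detected and 0 passed. Among NK cell markers Prf1 fell, with a log2 change of -0.67 ± 0.14. Ccr7, from the dendritic cell list, was higher, with control not well above background. All 5 detected B cell markers rose, of 8 on the array, with summed signal from 1948 to 2207 in knockout and from 1004 to 1008 in control. The defining B cell genes Ms4a1 and Pax5 were not detected. Of 7 genes listed as markers of small peritoneal macrophages and monocytes 6 rose. Their summed signal ran from 55341 to 58079 in knockout and from 4645 to 5190 in control. Most of the knockout sum was Folr2, Mrc1 and Lyve1, with log2 changes of 4.35 ± 0.14, 3.99 ± 0.13 and 3.17 ± 0.18. Fcrls rose by 5.25 ± 0.19. Whether the number of the named cells differed was not tested. Irf4 did not pass (log2 change 0.47 ± 0.16, limma, adjusted p = 0.123). Ccr2 and Cd226 were near background in knockout, with control not well above background. Of 8 mast cell markers 5 were detected, with Cpa3 higher (log2 change 0.71 ± 0.14) and Hdc lower (-4.32 ± 0.18). The summed mast cell signal ran from 512 to 569 in knockout and from 1393 to 1434 in control. Most of the control sum was Hdc, so its fall follows that gene and not the list. The other detected mast cell markers, Mcpt4, Cma1 and Fcer1a, had positive log2 changes that did not pass. Of 5 erythroid markers 4 were detected and 3 rose, with summed signal from 896 to 908 in knockout and from 216 to 225 in control. Hba-a1 and Hbb-bs passed the detection filter through the knockout arrays alone. With control not well above background, they were at least 5.11-fold and 5.72-fold higher. Hbb-bt, detected in both groups, rose by 1.74 ± 0.18 on the log2 scale. The part of these cells in the changes of Mmp9, Serpinb6a and the other called genes was not tested.

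The other detected Mmp genes did not pass. Mmp24, a membrane-anchored enzyme, had 10.32 and 10.19 in knockout and 10.20 and 10.29 in control, with overlapping groups and a 95% interval of -0.33 to 0.35. Mmp19 and Mmp1a were near background, with log2 changes of 0.10 ± 0.26 and 0.13 ± 0.28. Probes of Mmp28, also called epilysin, disagreed. Its brightest probe had 7.54 and 6.87 in knockout and 6.78 and 6.77 in control, and its log2 change of 0.43 ± 0.23 did not pass. A second Mmp28 probe, designed to a cDNA record, was not well above background in knockout (5.18 and 5.17) and was detected on both control arrays (6.63 and 6.27), at least 1.66-fold lower (adjusted p = 0.0072 over all detected probes). The direction of Mmp28 is therefore uncertain. Macrophage elastase Mmp12, the membrane-type enzyme Mmp14 and the collagenases Mmp8 and Mmp13 were not detected on any array, nor was the second gelatinase, Mmp2. Raw intensities of Mmp12 were 133 and 131 in knockout and 127 and 131 in control, beside array medians between 136 and 146.

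Among the inhibitors of these metalloproteinases Timp2 was detected and Timp1, Timp3 and Timp4 were not. Timp2, which also takes part in activating pro-MMP2, had a log2 intensity of 14.93 and 14.95 in knockout and 14.60 and 14.56 in control. The arrays agreed within 0.05 in each group and did not overlap, yet the log2 change of 0.36 ± 0.13 did not pass (adjusted p = 0.144, 95% interval 0.04 to 0.68). Timp1, often induced in inflamed tissue, had raw intensities of 147 and 150 in knockout and 131 and 142 in control.

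Of 55 serpins 7 were detected. Clade B, the intracellular group, had 4 detected of 25, clade A 2 of 21 and clade F 1 of 2, while none of the 7 genes of clades C, D, E, G, H and I was. The changed serpins, 1 in each direction, both belong to clade B. Serpinb1a, an inhibitor of neutrophil elastase and cathepsin G, had a log2 intensity of 8.91 and 9.31 in knockout and 11.19 and 11.12 in control. The raw intensity was 578 and 792 in knockout and 2650 and 2083 in control. The groups did not overlap, and the log2 change was -2.05 ± 0.18 (adjusted p = 0.0014), or 4.13-fold lower in the knockout with a 95% interval of 3.06-fold to 5.56-fold.

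Serpinb6a, an inhibitor of cathepsin G and trypsin-like proteases, had 14.39 and 14.19 in knockout and 13.25 and 13.38 in control. The raw intensity was 19374 and 19126 in knockout and 10707 and 9990 in control. The log2 change was 0.98 ± 0.15 (adjusted p = 0.0101), a rise of 1.97-fold with a 95% interval of 1.53-fold to 2.53-fold. Without knockout replicate 1 the change was 0.90 (adjusted p = 0.0604) and without control replicate 1 it was 0.89 (adjusted p = 0.0665), so it did not pass in either case. The other Serpinb6a probes were designed to other records or to none and were not detected on 2 arrays.

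Serpinb1a and Serpinb6a lie at opposite ends of 1 serpin cluster on chromosome 13. In the RefSeq order of protein-coding genes 14 genes stand between them, and all 14 are clade B serpins. Of the 16 serpins in this cluster 15 were named on the array, and the 2 at its ends were detected. The serpins between them that were measured, Serpinb9 included, an inhibitor of granzyme B, were not detected. Close paralogs such as Serpinb1b, Serpinb1c and Serpinb6b share sequence with the called genes, so the signal is uncertain as to the member.

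Serpinb8, an inhibitor of furin in humans, had 8.01 and 7.91 in knockout and 7.68 and 7.40 in control (log2 change 0.42 ± 0.16, adjusted p = 0.148). Serpinb10 had a log2 change of -0.10 ± 0.14 (95% interval -0.43 to 0.24). Serpinf1, the anti-angiogenic pigment epithelium-derived factor, had 0.17 ± 0.15. Serpina3j, one of a family of near-identical copies, had -0.43 ± 0.15 (adjusted p = 0.137), and the pseudogene Serpina4-ps1, the member detected on the fewest arrays among those tested (2), had -0.12 ± 0.22. Not detected were antithrombin Serpinc1, the C1 inhibitor Serping1, the collagen chaperone Serpinh1, the alpha-1 antitrypsin gene Serpina1a and neuroserpin Serpini1, the last with 1 detected array.

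**Figure D3:**
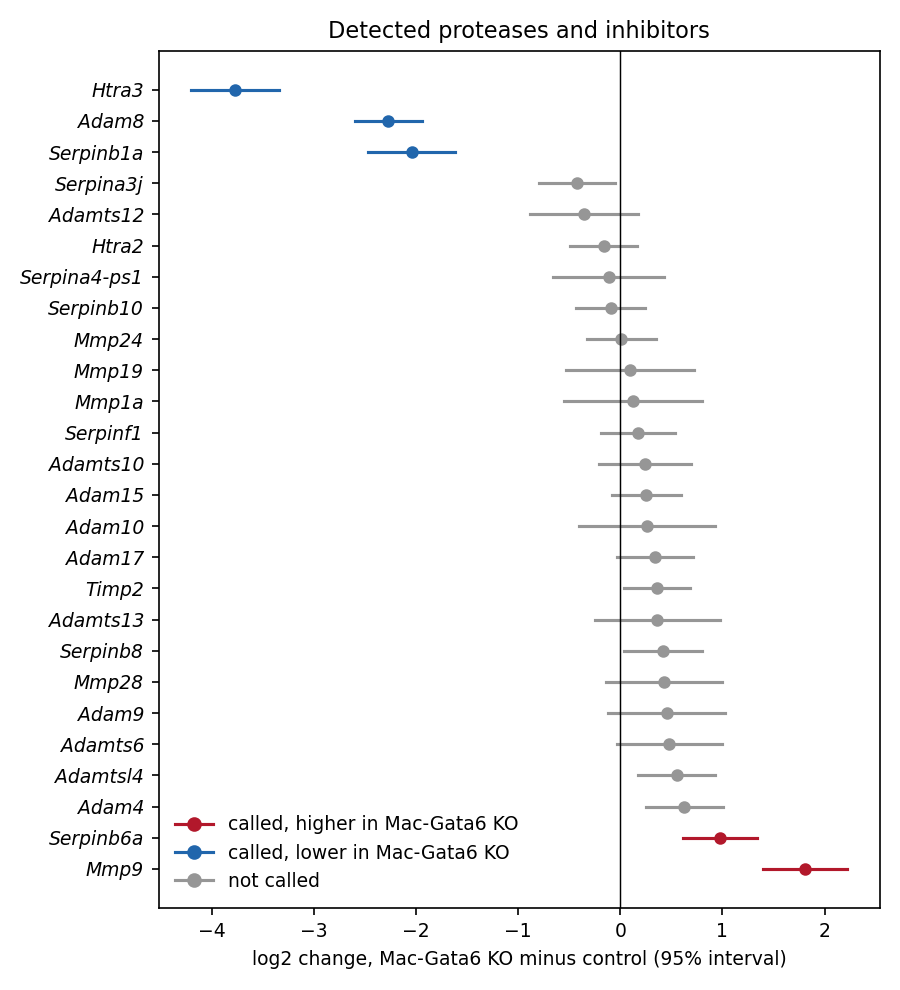
Fitted log2 change (points) with 95% interval (lines) for the 26 detected genes, Mac-Gata6 KO minus control, in order of change. The 3 called lower genes lie at -2.05 or below and the 2 called higher genes at 0.98 and 1.81, while the 21 others lie between -0.43 and 0.63.

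The 112 genes that were not detected accounted for most of the set. Of these 104 were detected on no array and 8 on 1 array, and none had another probe detected on 2. Their raw intensities ran from 100.4 to 193 with a median of 132. Each of the 26 tested genes was detected on at least 1 array of each group. Adam4, Adam10, Adamts6 and Adamts13 were detected on 2 knockout arrays and 1 control array, and Adamts12 on 1 knockout array and 2 control arrays. For these genes the arrays of the brighter group alone met the filter, and those of the other group alone did not. Between them, 20 were detected on all 4 arrays, 5 on 3 and 1 on 2. Of 36 further probes for these genes 10 were detected, for 7 genes, and 3 of the 10 had a sign opposite to that of the brightest probe. Those 3 belonged to Htra2, Mmp1a and Mmp28.

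Genes that act with the proteases and inhibitors were counted from lists, beside 12.3% of genes called over the whole table. Of 13 partners that traffic or mature ADAM10 and ADAM17, 7 were detected and 0 passed, with 2 at an unadjusted p under 0.05 (limma). All 7 had a positive log2 change, with a median of 0.35, beside 49.0% positive over all genes tested. The one with the smallest p was Tspan14, a tetraspanin that escorts ADAM10, at 13.77 and 13.65 in knockout and 13.21 and 13.28 in control (log2 change 0.46 ± 0.14, adjusted p = 0.0871). The other at an unadjusted p under 0.05 was Pcsk7, with 0.39 ± 0.14 (limma, adjusted p = 0.138). The protease Furin, which removes the prodomains of ADAMs, had 0.35 ± 0.15 (adjusted p = 0.203).

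Of 19 sheddase substrates named on the array 13 were detected, 2 rose and 2 fell. The haemoglobin scavenger receptor Cd163, shed by ADAM17, rose by 2.98 ± 0.14 on the log2 scale. Hbegf, a growth factor released by shedding, rose by 1.23 ± 0.24 (adjusted p = 0.0238). The membrane chemokine Cxcl16, cut by ADAM10, had -1.30 ± 0.15 (adjusted p = 0.0042), and Notch1 had -0.65 ± 0.14 (adjusted p = 0.0357). The median over the 13 was 0.02.

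Of 8 genes of plasminogen activation 5 were detected and 0 passed, with 2 at an unadjusted p under 0.05 (limma). For Plaur, the receptor of urokinase, the log2 change was 0.44 ± 0.13 (adjusted p = 0.0916). For urokinase itself, Plau, it was 0.50 ± 0.18 (adjusted p = 0.144). Plat and Plg were not detected.

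Of 22 serine proteases that serpins target 7 were detected, 1 rose and 1 fell. Cathepsin G, Ctsg, which SERPINB1 and SERPINB6 inhibit in humans, was not well above background in control (5.04 and 4.97) and detected on both knockout arrays (6.32 and 6.37), at least 1.53-fold higher (adjusted p = 0.0024). The membrane serine protease matriptase, St14, was not well above background in knockout (5.12 and 4.76) and detected on both control arrays (7.28 and 7.22), at least 2.89-fold lower (adjusted p = 0.0007). Each passed the detection filter through 1 group alone. Neutrophil elastase, Elane, and granzyme B, Gzmb, were not detected.

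Of 19 protease inhibitors outside the serpin and TIMP families 6 were detected, 2 rose and 0 fell. Cystatin B, Cstb, an inhibitor of cysteine cathepsins, had 14.21 and 14.21 in knockout and 13.48 and 13.57 in control (log2 change 0.69 ± 0.13, adjusted p = 0.0245). Ambp, the precursor of bikunin, a trypsin inhibitor, had 8.10 and 7.94 in knockout and 6.88 and 6.68 in control (log2 change 1.24 ± 0.15, adjusted p = 0.0047). The elastase inhibitor Slpi and cystatin C, Cst3, did not pass, with log2 changes of 0.33 ± 0.13 and 0.09 ± 0.13. Tfpi had a negative log2 change, -0.54 ± 0.17, that did not pass either (limma, adjusted p = 0.0994). The MMP inhibitor Reck was not detected. Of 7 receptors that clear protease-inhibitor complexes 4 were detected and 1 passed, Sdc1, a heparan sulfate proteoglycan that plasma cells also carry. It was detected on both knockout arrays and, with control not well above background, was at least 1.26-fold higher. Lrpap1 (log2 change -0.53 ± 0.14, adjusted p = 0.0683), Lrp1 (-0.40 ± 0.15, adjusted p = 0.148) and Sdc4 (0.07 ± 0.14) did not pass (limma). The median over the 4 was -0.17.

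**Figure D4:**
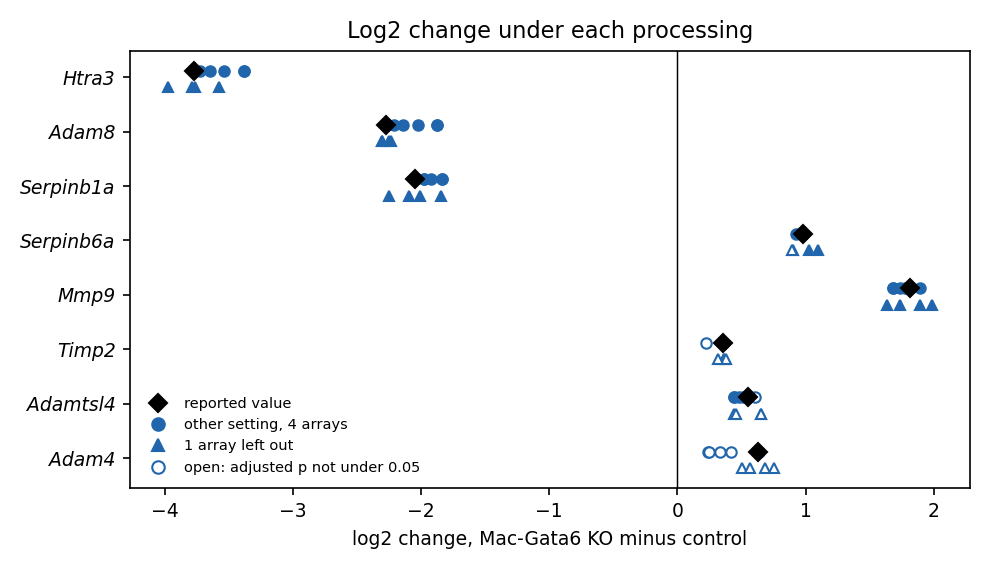
Log2 change, Mac-Gata6 KO minus control, of the 5 called genes and of the 3 detected genes that passed under another processing, with reported values as diamonds, other settings on 4 arrays as circles and fits with 1 array left out as triangles. Open symbols did not pass. Htra3, Adam8, Serpinb1a and Mmp9 are filled throughout, and Serpinb6a has 2 open triangles.

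The log2 changes of the called genes depended little on the processing. Over 11 other settings that kept all 4 arrays they ranged from -3.77 to -3.38 for Htra3, from -2.27 to -1.87 for Adam8, from -2.05 to -1.84 for Serpinb1a, from 0.92 to 0.98 for Serpinb6a and from 1.68 to 1.89 for Mmp9, and all 5 passed in each. With 1 array left out Htra3, Adam8, Serpinb1a and Mmp9 passed in all 4 fits and Serpinb6a in 2.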

How the data were processed

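RNA of sorted peritoneal macrophages was measured on Illumina bead arrays, 2 from Mac-Gata6 KO and 2 from control mice. The authors deposited probe intensity values that were not normalized and a detection p-value per probe and array, per the file headers. They also deposited processed intensity values, used as an alternative, whose columns share 1 linear scale, uncentred (medians between 142.05 and 142.14). The sources used here do not name the software behind these tables. Of 45281 probes, 34885 had 1 gene symbol in the platform annotation, 18 several and 10378 none, and all 138 members matched RefSeq (GRCm38.p6) by gene identifier.

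Intensities were normalized with neqc of limma 3.58.1 (R 4.3.3, offset 16), which uses the detection p-values for background correction, then quantile normalization and log2. Probes detected (p under 0.05) on at least 2 arrays were kept (16713), then 1 per gene by highest mean, giving 9200 named genes and 2428 unnamed probes. lmFit and eBayes compared knockout with control over all 11628, without a block, and Benjamini-Hochberg adjusted p under 0.05 was called. The procedure was tested on simulated data. Further probes of a gene come from a fit over all detected probes. Where a group has no detected array, the fold is a bound: the mean of the brighter group is set over that of the dimmer one after raising each dim array to the lowest value among its detected probes. The number of arrays limits the precision. Members and lists were chosen with earlier results of these data known. Named were every called member, a list of well-known members, up to 4 further detected members per family by smallest p, and some genes of the other lists. All 26 detected members are given. Where Adam15 and Mmp28 probes are described, or examples of undetected genes, they were chosen after their values were seen.

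The replicate numbers do not pair samples in the labels, and deviations of same-numbered arrays correlated at -0.13 over genes, so no block was used.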

Additional observations from a re-analysis of the deposited data

How the results depend on the processing

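The count of lower members was 3 (Adam8, Htra3, Serpinb1a) in all settings run, left-out arrays included. The count of higher members, 2 as reported, was 4 in each of 3 settings, namely no background correction, the authors' values, and a robust variance with intensity trend, which each added Adamtsl4 and Timp2. It was 3 in 6 settings: Adamtsl4 was added with normexp at offset 50, neqc at offset 50 and detection on all 4 arrays, Adam4 with median scaling and the crossed pairing, and Serpina3f, detected on 1 knockout array, with no detection filter. Over 11 settings with 4 arrays Adamtsl4 thus passed in 6 and Timp2 in 3, and Adam4 passed in 2 of the 10 that tested it. With a threshold of 2-fold it was 1, Mmp9, since Serpinb6a lies just below it. With 1 array left out it ranged from 1 to 2, Serpinb6a being lost without knockout replicate 1 and without control replicate 1. Over the 26 detected members, 269 values in settings with 4 arrays kept direction and side, 11 crossed the threshold and 0 lost it. With the replicate block 2 members were higher and 3 lower, as reported. The crossed pairing, an alternative chosen after seeing the data, gave 3 members higher and 3 lower. With 1 array left out, when the lone array is assumed to vary like the other group, 8 values that did not pass in either fit turned sign. Without knockout replicate 2 these were Adam10, Mmp1a and Serpina4-ps1, without knockout replicate 1 Mmp24, without control replicate 1 Mmp19, Mmp1a and Mmp24, and without control replicate 2 Adam10. Over the fits with 1 array left out the log2 change ran from -0.067 to 0.58 for Adam10, -0.28 to 0.49 for Mmp19, -0.21 to 0.47 for Mmp1a, -0.055 to 0.076 for Mmp24 and -0.31 to 0.14 for Serpina4-ps1. The cause of these differences was not tested. No slide is named, so none was used as a block. Signal near background limits the genes detected on 2 or 3 arrays.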
